A study of Homo sapiens with 18 samples.

Results

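Cytosolic ribosome footprints were set against messenger RNA in unedited HEK293 cells, a line derived from human embryonic kidney (WT, no treatment). The comparison used 4 of the 18 libraries of the series: 2 footprint libraries of the WT cytosolic fraction and 2 mRNA libraries of WT whole cells, each pair lettered a and b. Per the labels' protocols, digitonin released the cytosolic fraction, RNase I digestion gave its footprints, and the mRNA libraries came from total RNA of Triton lysates after ribosomal RNA removal. Transcripts were matched between the assays by ID without version and by listed length, which left 25629 transcripts. Of these, 21193 had a count in the 4 libraries and formed 13947 distinct features after transcripts with identical counts in all 4 were merged. For comparison, 3 further sets of libraries were read: WT membrane footprints (Triton lysate of the pellet left by digitonin), and cytosol footprints with mRNA of the lines UFM1-KO and UFSP2-KO, each a clone made with Cas9 and each with libraries a and b. UFM1 is a ubiquitin-like modifier and UFSP2 a protease that removes it from its targets.

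Ribosome profiling counts the stretches of mRNA that ribosomes protect from nuclease. The number of footprints on an mRNA relative to its amount is the usual readout of how heavily it is engaged by ribosomes. In mammalian cells, mRNAs of secreted and membrane proteins are largely translated at the endoplasmic reticulum, while most other mRNAs are translated on free ribosomes. The footprints here came from the digitonin lysate alone and the mRNA from the whole cell, so a low ratio combines few ribosomes per mRNA with ribosomes that were in the other fraction, and these cannot be told apart for a single feature.

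The WT cytosol libraries a and b held 1393032 and 6666021 counts, and the WT mRNA libraries a and b held 51760318 and 58264307. In the 13004 features tested, 1 cytosol count equalled 1.41 CPM in library a and 0.328 CPM in library b, while 1 mRNA count equalled 0.0392 and 0.0336 CPM. CPM here is the count normalised to library size after edgeR's TMM scaling. Across these features log2 CPM of the replicates correlated at Pearson's r = 0.919 in the cytosol and 0.977 in mRNA, and mean cytosol with mean mRNA at 0.733. Features are not independent replicates. The sources used here do not pair the transcript IDs with gene names, so the identity of the line and of the fraction was not checked with marker genes, near-identical gene copies could not be set aside, and no feature is given a gene name or a sequence. Nothing in the labels says that a and b came from separate cultures, so p-values measure only the spread between these libraries.

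The ratio of cytosol footprints over mRNA ranged widely among WT features and had a longer tail on the low side. On the log2 scale its median was -0.31 and its quartiles -1.83 and 0.58, and 5% of features lay below -6.80 and 5% above 1.73. At a Benjamini-Hochberg adjusted p under 0.05 in edgeR's quasi-likelihood fit, cytosol footprints were called higher for 2668 of 13004 features (20.5%) and lower for 4350 (33.5%), together 54% of those tested. The direction of a call depends on where the scaling sets 0. With library size only, the median moved by -0.95 and 778 features were called higher and 7889 lower, so that 8.98% of the calls were higher, against 38.0% with TMM. Below, the ratios of groups of features are therefore also given relative to the median of all features, which the choice of scaling hardly moves.

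The calls in the 2 directions rested on different depths. Of the 6575 features with at least 10 counts in both WT cytosol libraries, 2475 were called higher and 992 lower. Of the 3702 features with under 3 counts in a cytosol library, 36 were called higher and 2260 lower. A feature with few cytosol footprints entered the test through its mRNA, so it could hardly be called higher. Among the 10893 features with at least 100 counts in both mRNA libraries, 210 (1.93%) had 0 cytosol footprints in both libraries. A count of 0 allows up to 3 counts, which is 4.23 CPM in cytosol library a and 0.985 CPM in library b. These 210 features had a median of 196.5 and 253.5 mRNA counts in libraries a and b. Of them 159 had at least 10 footprints in both WT membrane libraries, 30 were at 0 in all 4 knockout cytosol libraries as well, and 0 were without a footprint in the whole series. Of the 6575 features with at least 10 footprints in both cytosol libraries, 12 had under 10 counts in both mRNA libraries. A cytosol count stands for more CPM than an mRNA count, so the cutoffs are unlike and 12 is not comparable with 210.

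The features with few cytosol footprints were then compared by location. Location was taken from the 8 footprint libraries of the 2 knockouts, which share no library with the WT comparison: features over 2-fold higher at the membrane than in the cytosol at an edgeR adjusted p under 0.05 form the membrane class, those over 2-fold lower the cytosol class, and the other features tested there the middle. These folds are relative to the 0 that TMM sets between the fractions, so the classes do not give the share of ribosomes in each. Of the 13004 features, 2164 fell in the membrane class, 466 in the cytosol class and 7318 in the middle, and 3056 had too few knockout footprints for a class. In WT cells 1985 of the 2164 membrane class features were called lower in cytosol footprints than in mRNA (background 33.5%) and 37 higher (background 20.5%). Their median log2 ratio was -4.14, or -3.82 relative to all features. Since the class was chosen for low cytosol footprints relative to membrane footprints in the knockouts, its low place in WT restates this in other libraries. The same holds below for its calls in cytosol against membrane footprints, for its share of counts and, in the other direction, for the cytosol class.

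The size of that deficit was limited by depth. The membrane class had a median of 2 and 4 cytosol counts in libraries a and b, 1391 of its members had under 3 counts in a cytosol library, and 174 had 0 in both. With every cytosol count below 3 set to 3 in each library, the median ratio under TMM was -2.58, or 5.96-fold lower in cytosol footprints. The median was -3.46 in cytosol library a and -4.28 in the deeper library b, each set against the mean of the mRNA libraries. Among the 234 members with at least 10 counts in both cytosol libraries the median was -1.25, and 146 were called lower (62.4%) and 22 higher (9.40%), beside 15.1% and 37.6% of all features with such counts. The same class was higher in WT membrane footprints than in mRNA, with a median of 1.30 and 1548 of 2164 called higher (background 26.6%) and 123 lower (background 30.2%). Over all features 56.8% were called in that comparison. These values share the mRNA libraries with the cytosol ratios. Tested directly as cytosol against membrane footprints in WT, 2129 of 2155 members were called lower in the cytosol by edgeR (background 25.3%) and 0 higher. The calls in either direction made up 38.7% of all features there.

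**Figure D1:**
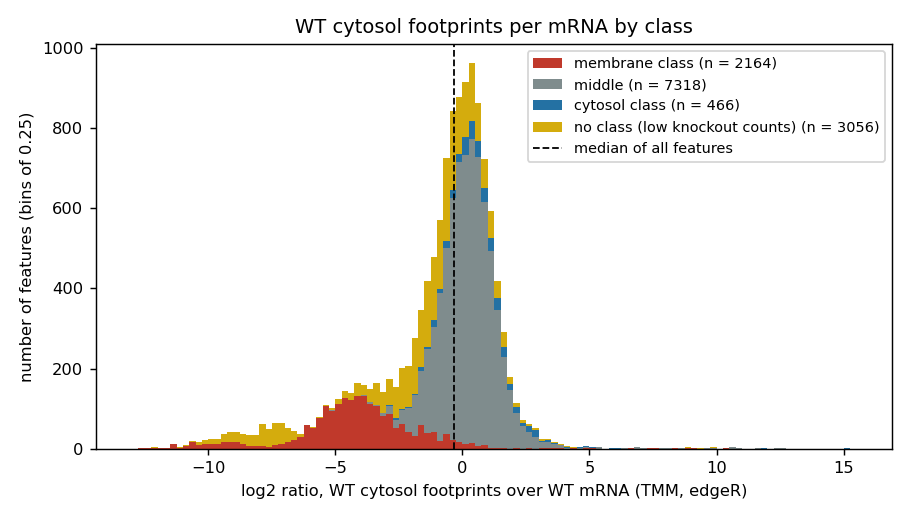
Stacked histogram of the log2 ratio of WT cytosol footprints over WT mRNA for the 13004 features tested, coloured by the class taken from the knockout footprint libraries; the dashed line is the median of -0.31. The middle centres near 0.23 and the membrane class near -4.14, while features below about -6.80 are mostly those with hardly any cytosol count.

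Members of the membrane class differed among themselves by coding length. The 33 members of 51 to 100 codons had a median log2 ratio of -0.62, and 15 were called lower and 8 higher (24.2%, near the background of 20.5%). The 765 members of 401 to 800 codons had a median of -4.53, and 722 were called lower (94.4%, background 33.5%) and 13 higher. Members of 101 to 200 codons lay between them, at -2.81 for 198 features. The longest members, over 1600 codons, were at -3.66 for 141 features. The 4 members of up to 50 codons, at -3.36, are left aside here. Of the members of 401 to 800 codons, 556 had under 3 counts in a cytosol library. With counts below 3 set to 3, the medians for 51 to 100, 101 to 200, 401 to 800 and over 1600 codons were -0.66, -1.79, -2.75 and -2.66. The difference between the last 2 was thus not resolved at this depth. Set side by side with the membrane footprints, whose ratio over the same mRNA had medians of 1.99, 1.94, 1.27 and 0.35 in order of rising length, the short members were high in both fractions relative to the long ones. In the direct WT comparison of cytosol with membrane footprints, 32 of the 33 members of 51 to 100 codons were called lower in the cytosol (background 25.3%), where the class had been chosen by the same contrast in the knockouts.

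The cytosol class lay on the high side. Its 466 features were short, with a median of 164.5 codons against 474 in the middle, and 224 were called higher in WT cytosol footprints than in mRNA (48.1%, background 20.5%) and 59 lower (12.7%, background 33.5%). The median log2 ratio was 0.71, or 1.02 relative to all features, and 0.54 and 0.77 in cytosol libraries a and b. The middle had a median of 0.23, with 2335 of 7318 called higher (31.9%) and 1229 lower (16.8%). The background includes the membrane class and features with few footprints. Of all features with at least 10 counts in both cytosol libraries, 37.6% were called higher and 15.1% lower, with a median of 0.35. The 12.7% of the cytosol class called lower is near that 15.1%. At 0.71, the cytosol class lay nearer to that median than to the median of all features. Short features outside the membrane class, which include members of the cytosol class, lay close to it. The 1370 of 101 to 200 codons had a median of 0.62, with 43.2% called higher and 9.93% lower. The 397 of 51 to 100 codons had a median of 0.83, with 50.4% called higher and 7.56% lower. A difference from features of like length was not tested. With library size only, 115 members of the cytosol class were called higher and 154 lower, against 5.98% and 60.7% of all features under that scaling, while the class still lay 1.02 above the median of all features.

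The same classes, chosen by location in the knockouts, were also described by their share of counts. The membrane class held 1.48% and 1.08% of the counts of WT cytosol libraries a and b, and 12.5% and 13.4% of the counts of WT mRNA libraries a and b. The cytosol class held 18.9% ± 1.31 of cytosol footprints, against 7.73% ± 0.19 of mRNA (SD, n = 2 each). The libraries of the 2 assays did not overlap in either class. The two-sided exact permutation p was 0.33 for both, the smallest that 2 libraries against 2 can give.

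**Figure D2:**
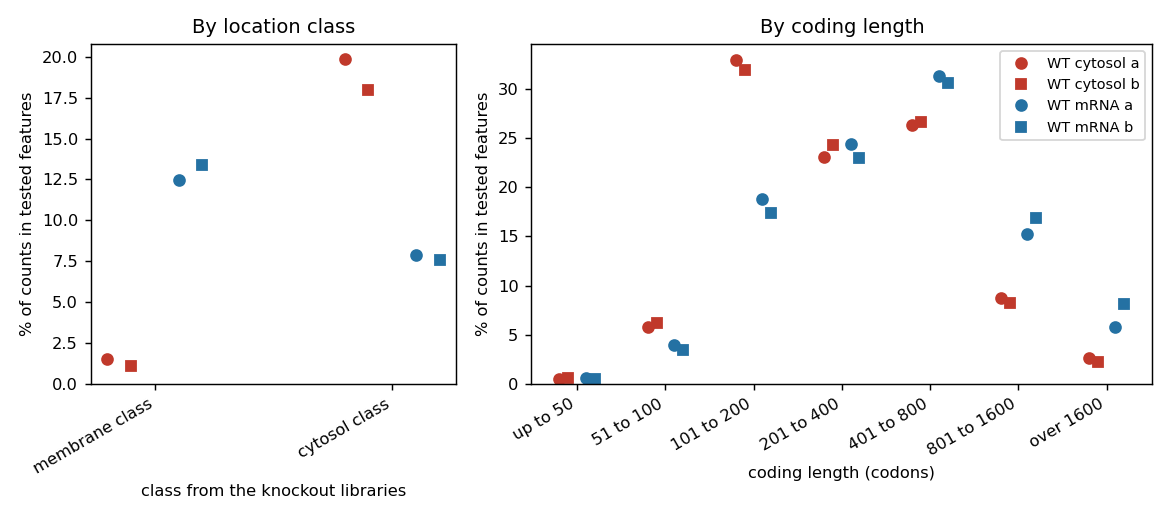
Percent of the counts in tested features held by location classes (left) and coding length classes (right), with 1 point per WT library; circles are libraries a and squares libraries b, cytosol in red and mRNA in blue. The membrane class holds 1.48% and 1.08% of cytosol footprints against 12.5% and 13.4% of mRNA, and features of 101 to 200 codons hold 33.0% and 32.0% against 18.8% and 17.4%.

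Coding length ordered the WT ratios over most of its range. No source used here states the unit of the listed length. It is read throughout as codons left after a trim, so the full coding length may be larger. The values of length hold under that reading. The listed length is 1 larger in the mRNA tables than in the footprint tables for matched transcripts. The 430 features of 51 to 100 codons had a median log2 ratio of 0.74, with 208 called higher (background 20.5%) and 45 lower (background 33.5%). The 614 features over 1600 codons had a median of -1.25, with 17 called higher and 366 lower. Between them the medians fell class by class, at 0.43 for 101 to 200 codons, -0.04 for 201 to 400, -0.40 for 401 to 800 and -0.78 for 801 to 1600. The 97 features of up to 50 codons, at 0.61, did not continue the order. With library size only, 99 features of 51 to 100 codons were called higher and 127 lower, with a median of -0.20. For 101 to 200 codons it was 251 and 637, with a median of -0.53. Over all features that setting called 5.98% higher and 60.7% lower. Relative to the median of all features, the classes of 51 to 100 and over 1600 codons were then at 1.07 and -0.93.

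The order held outside the membrane class, where the medians ran through 0.72, 0.83, 0.62, 0.26, -0.14, -0.51 and -0.89 from the shortest to the longest class. Each cytosol library showed it when set against the mean of the mRNA libraries: features of 51 to 100 codons outside the membrane class were at 0.70 in library a and 0.99 in library b, and features over 1600 codons at -0.84 and -0.90. Among the 6341 such features with at least 10 counts in both cytosol libraries, the log2 ratio changed by -0.43 per doubling of length and correlated with log2 length at Pearson's r = -0.434 and with length at Spearman's rho = -0.483, across features of the same libraries. The quartiles of the ratio outside the membrane class were -0.08 and 1.69 for 51 to 100 codons, and -1.77 and -0.33 for over 1600. With every cytosol count below 3 set to 3, the medians of the 6 classes above 50 codons were 0.94, 0.72, 0.46, 0.10, -0.27 and -0.61, in the same order.

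The mRNA replicates themselves differed along length. Library b of mRNA over library a had a median log2 ratio of -0.17 in features of 51 to 100 codons and 0.38 in those over 1600 codons. Features over 1600 codons held 2.57% and 2.18% of cytosol footprints in libraries a and b, and 5.81% and 8.15% of mRNA counts. Without mRNA library b they lay -0.77 from the median of all features, and without mRNA library a -1.06, against -0.93 with both. For features of 51 to 100 codons the values were 0.97, 1.27 and 1.06. The order of the short and long classes was thus the same with either mRNA library alone.

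**Figure D3:**
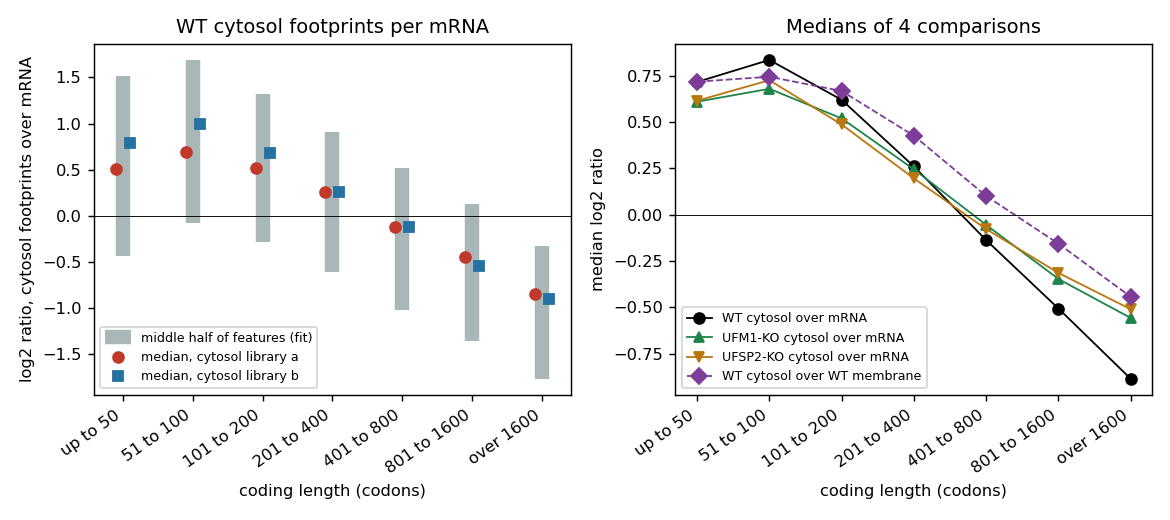
Log2 ratios by coding length class for features outside the membrane class. Left, medians of cytosol libraries a (circles) and b (squares) over mean WT mRNA, with grey bars from the lower to the upper quartile of the fitted ratio; right, medians of the fitted ratio in WT, UFM1-KO and UFSP2-KO and of WT cytosol over WT membrane footprints. WT medians run from 0.83 at 51 to 100 codons to -0.89 over 1600 codons.

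Length also ordered cytosol against membrane footprints within WT, a comparison in which the mRNA libraries take no part. Outside the membrane class, 156 of 314 features of 51 to 100 codons were called higher in the cytosol than at the membrane (background 13.5%) and 7 lower (background 25.3%), with a median log2 ratio of 0.74. Of 389 features over 1600 codons, 6 were called higher and 123 lower, with a median of -0.44. The background here counts all features, the membrane class included. Outside that class, 1466 of 8708 features were called higher in the cytosol and 601 lower. The number of features called higher in the cytosol was sensitive to single libraries: over all features it was 1466, and 564, 539 and 859 without membrane library a, membrane library b and cytosol library b. With library size only, 1989 were called higher and 2615 lower, against 1466 and 2748 with TMM. Relative to mRNA, membrane footprints outside the membrane class had medians of -0.00 at 51 to 100 codons and -0.67 over 1600 codons, beside 0.83 and -0.89 for cytosol footprints over the same mRNA libraries.

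The WT ratio was highest in the features with the highest mRNA level. Level was taken from the 4 knockout mRNA libraries as CPM per codon, so that no WT library set it, and the tested features were ranked in 4 equal groups of 3251. Outside the membrane class the median log2 ratio was -0.77 in group 1, the lowest level, -0.25 in group 2, 0.05 in group 3 and 0.67 in group 4. With every cytosol count below 3 set to 3, these medians were 0.32, -0.18, 0.04 and 0.66, so that the place of group 1 was not resolved at this depth. In group 4, of which 2749 features lay outside the membrane class, 1463 were called higher (background 20.5%) and 328 lower (background 33.5%). The background includes the membrane class. Outside that class 24.3% of features were called higher and 21.8% lower, against 53.2% and 11.9% in group 4. In group 1, with 2861 such features, 207 were called higher and 771 lower, but 1840 had under 3 counts in a cytosol library, so that few could be called higher. The step between groups 3 and 4 did not rest on such features, as 92 and 30 of their members had under 3 counts.

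Level and length moved together, since the median length was 273 codons in group 4 and 546 in group 1. Group 4 was also highest within the length class of 401 to 800 codons. Among features of 401 to 800 codons outside the membrane class, the medians were -0.76, -0.15, 0.05 and 0.42 from group 1 to group 4, over 1133, 1028, 984 and 666 features. Of the group 1 features 726 had under 3 counts in a cytosol library, and with counts below 3 set to 3 the medians were 0.23, -0.14, 0.04 and 0.40. In shorter classes that step put group 1 above group 4. The medians were 1.88 against 1.01 for 51 to 100 codons, 1.25 against 0.85 for 101 to 200 and 0.71 against 0.69 for 201 to 400. The place of group 1 was thus not resolved there. Up to 50 codons, group 4 was at 0.54 and group 3 at 0.76 without that step. Within group 4 the length classes differed too: the median was 1.08 for 247 features of 51 to 100 codons, 0.88 for 714 of 101 to 200, 0.72 for 882 of 201 to 400, 0.42 for 666 of 401 to 800 and 0.29 for 165 of 801 to 1600. Only 17 features of group 4 were longer than 1600 codons, and their median was -0.22. The 58 of up to 50 codons, at 0.54, did not continue the order.

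Footprints were concentrated on fewer features than mRNA. The 100 features with the most counts in each library held 42.2% and 39.8% of cytosol footprints in libraries a and b, against 21.9% and 20.3% of mRNA counts. To reach 50% of the counts took 160 and 174 features in the cytosol libraries, and 798 and 874 in the mRNA libraries. The WT membrane libraries lay between, with 31.4% and 29.6% in their top 100. The knockout libraries were like those of WT, at 39.0% to 42.3% in the 4 cytosol libraries and 21.7% to 24.8% in the 4 mRNA libraries. The 10 features with the most cytosol footprints shared 3 members with the 10 with the most mRNA counts. All 10 were called higher in footprints than in mRNA, with log2 ratios of 1.14 to 3.40, but they were chosen for high footprint counts, so this is a description.

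Within the middle class the ratios still spread more than the replicates. Among its 5942 features with at least 10 counts in both cytosol libraries, the SD of the log2 ratio across features was 1.12, while the SD of the difference between cytosol libraries a and b was 0.46. Of these features edgeR called 2237 higher (37.6%) and 807 lower (13.6%), which is near the 37.6% and 15.1% among all 6575 features with such counts. Ratios over 4-fold higher in cytosol footprints were found for 281 features, with a median length of 206 codons, and ratios over 4-fold lower for 70, with a median length of 865.5 codons. Of the 281, 161 were also over 4-fold higher in both knockouts, and 23 of the 70 were over 4-fold lower in both. These counts are measured from the 0 set by TMM in each line, and the median of the middle in WT was 0.23. The balance of 281 against 70 therefore depends on the scaling, and no such counts over all features are given here.

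The same contrast in the knockout lines, which share no library with WT, gave similar ratios. The UFM1-KO fit called 5946 of 12684 features (46.9%), with 18.2% higher and 28.7% lower. For UFSP2-KO it was 5965 of 12291 (48.5%), with 18.4% higher and 30.1% lower. Of the WT features called higher and also tested in the knockout, UFM1-KO called 1949 of 2644 (73.7%) higher as well, and UFSP2-KO 1932 of 2640 (73.2%). These are 84.6% of the 2303 features higher in UFM1-KO and 85.5% of the 2260 higher in UFSP2-KO. Of the WT features called lower, UFM1-KO called 3308 of 4270 (77.5%) lower and UFSP2-KO 3315 of 4193 (79.1%), or 91.3% and 90.3% of those lower in the knockouts. A call in opposite directions occurred for 1 feature in each knockout. In all 3 lines together, 1665 features were called higher and 2914 lower among the 12047 tested in each.

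**Figure D4:**
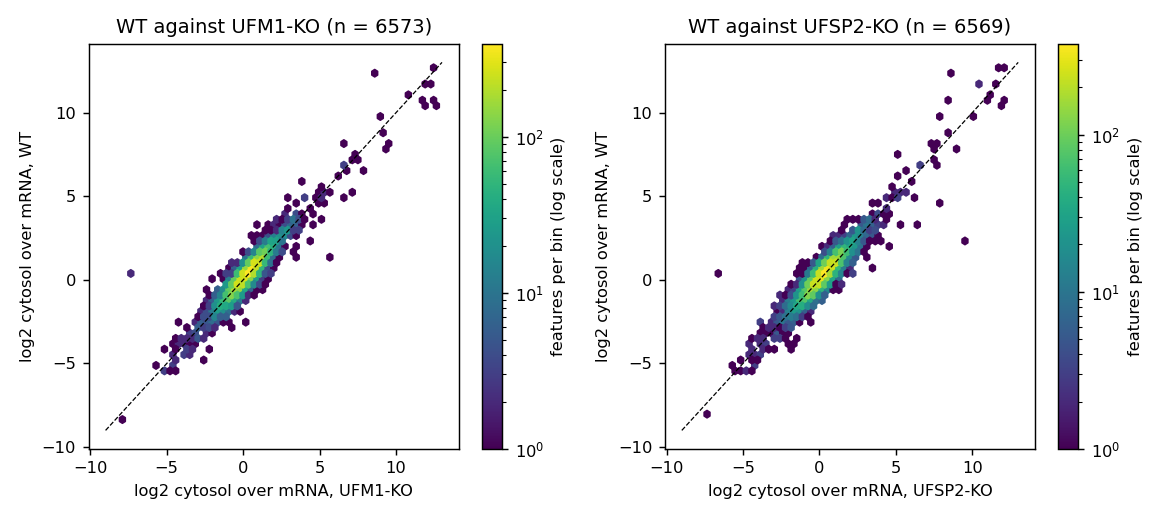
Log2 ratio of cytosol footprints over mRNA in WT (vertical axis) against UFM1-KO and UFSP2-KO (horizontal axes), for features with at least 10 counts in both WT cytosol libraries; colour gives the number of features per hexagon on a log scale and the dashed line marks equal ratios. Points follow the line, with Pearson's r of 0.937 over 6573 features in UFM1-KO and 0.930 over 6569 in UFSP2-KO.

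Across all features tested in both lines, WT ratios correlated at r = 0.823 with UFM1-KO and 0.845 with UFSP2-KO. Outside the membrane class, features over 1600 codons had a median of -0.89 in WT, and -0.56 and -0.51 in UFM1-KO and UFSP2-KO, while features of 51 to 100 codons had 0.83 in WT, and 0.68 and 0.73. The difference between the lines in this span was not tested, and each knockout line is a clone.

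The 4 features at the ends of the WT ratio, among the 4342 called with at least 3 counts in each library and a mean of at least 50 in the higher assay, each consisted of a single transcript. ENST00000621112.1, listed with 106 codons, had 1723 and 1314 CPM in cytosol footprints (1223 and 4003 counts), against 0.902 and 0.604 CPM in mRNA (23 and 18 counts). Both cytosol libraries lay far above both mRNA libraries, and the log2 ratio was 10.97 (SE 0.33, edgeR adjusted p = 2.58e-12). Its mRNA was as low in the knockouts, with 17 and 25 counts in the UFM1-KO libraries and 27 and 2 counts in the UFSP2-KO libraries. ENST00000366696.1, listed with 116 codons, had 541 and 436 CPM in cytosol footprints (384 and 1328 counts), against 0.274 and 0.336 CPM in mRNA (7 and 10 counts). The assays did not overlap, and the log2 ratio was 10.59 (SE 0.35, edgeR adjusted p = 5.12e-12). Both features were in the middle class: in WT membrane libraries a and b the first had 1155 and 3627 footprint counts and the second 943 and 1966. Cytosol over membrane, the log2 ratio of the first was 1.13 (SE 0.21, edgeR adjusted p = 1.17e-05) and that of the second 0.06 (SE 0.22, edgeR adjusted p = 0.867). With so few mRNA counts, reads shared with other transcripts cannot be told apart from the features' own.

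At the low end, ENST00000361739.1, listed with 207 codons, had 16.9 and 3.28 CPM in cytosol footprints (12 and 10 counts), against 2085 and 1896 CPM in mRNA (53202 and 56455 counts). Both cytosol libraries lay far below both mRNA libraries, and the log2 ratio was -8.23 (SE 0.42, edgeR adjusted p = 4.60e-10). ENST00000361899.2, listed with 206 codons, had 7.05 and 1.97 CPM in cytosol footprints (5 and 6 counts), against 414 and 541 CPM in mRNA (10556 and 16111 counts). Its log2 ratio was -7.27 (SE 0.41, edgeR adjusted p = 1.31e-09). Both were in the membrane class, which rests on the whole pellet left by digitonin. The class does not say at which membrane of the pellet a feature was translated. In the WT membrane libraries the first feature had 5926 and 12091 footprints and the second had 2295 and 6781. Between libraries a and b their cytosol counts went from 12 to 10 and from 5 to 6, although library b held several times more counts. Their ratios were therefore -6.87 and -9.18 in libraries a and b for the first and -6.04 and -7.81 for the second. In the knockouts the log2 ratios were -7.99 and -7.35 for the first and -7.82 and -6.15 for the second, in UFM1-KO and UFSP2-KO in that order.

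**Figure D5:**
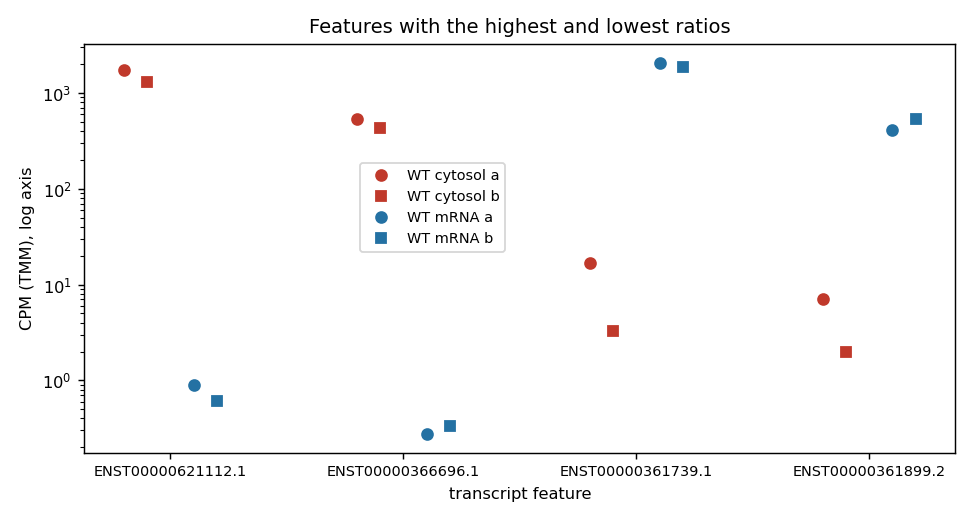
TMM-scaled CPM, on a log axis, of the 2 features with the highest and the 2 with the lowest ratios, with 1 point per WT library; cytosol in red to the left, mRNA in blue, circles for library a and squares for library b. ENST00000621112.1 stands at 1723 and 1314 CPM in cytosol footprints against 0.902 and 0.604 CPM in mRNA, and ENST00000361739.1 at 16.9 and 3.28 against 2085 and 1896.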

How the data were processed

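Each library was deposited as a table of raw counts per Ensembl transcript with a length, without a header. Per the submitters' processing notes, TopHat2 2.1.1 was the aligner tool named and GRCh38 the build. Which program counted reads, and on which annotation, is not given in the sources used here. Deposited counts were whole numbers whose totals differed between libraries. From them, 84 mRNA entries that repeat transcripts on the second sex chromosome were left out, and matched transcripts with identical counts in the 4 WT libraries were merged and named by their first ID. Of the 13004 features tested, 10131 held 1 transcript and none over 16.

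Counts of the 4 WT libraries were tested in R 4.3.3 with edgeR 4.0.16 (quasi-likelihood, 1 coefficient per group, TMM, filterByExpr with a minimum count of 10), two-sided, with adjusted p under 0.05 as the call, which removed 943 features. Standard errors were derived from the F statistic. Medians per library used log2 CPM with a prior count of 2. The same fit was run for cytosol against mRNA in each knockout and for cytosol against membrane in WT. The location class came from 1 edgeR model over the 8 knockout footprint libraries with terms for line and fraction. DESeq2 1.42.0 and other settings were alternatives.

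The comparison, classes and gene lists were chosen with earlier results of these data known. As no table at hand pairs transcript IDs with genes, the gene lists, the representation by 1 feature per gene and the planned shares of gene lists were not used; shares are given for location and length classes instead. The features named are the 2 highest and 2 lowest ratios among called features with at least 3 counts in each library and a mean of at least 50 in the higher assay. Floors cover counting error only.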

Additional observations from a re-analysis of the deposited data

How the results depend on the processing

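The WT comparison called 7018 of 13004 features, and 9616 of 17560 when identical transcripts were not merged. With library size only 778 were higher and 7889 lower. With at least 10 counts required in both cytosol libraries, 3174 of 6575 features were called, 1493 higher and 1681 lower, or 47.0% higher; this filter removes features low in the cytosol and the median moved by 0.26. DESeq2 called 5914, and 1 model over all 18 libraries called 7249. TMM from features outside the membrane class, chosen after seeing the data, called 2066 higher and 4985 lower and moved the median by -0.22. Leaving out 1 library at a time gave 4913 to 7212 calls in WT (1819 to 2993 higher, 3094 to 4219 lower), 4645 to 5251 in UFM1-KO, 4121 to 5620 in UFSP2-KO (1462 to 2212 higher) and 2843 to 4628 for cytosol against membrane (539 to 1595 higher). With 1 library in an arm, it is assumed to vary like the other group.

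Relative to the median of all features, the membrane class lay between -4.15 and -1.61, features of 51 to 100 codons between 0.83 and 1.27 and those over 1600 codons between -1.07 and -0.77, without the setting that removes each library's trend over length, under which the last 2 were -0.33 and -0.07. All 4 named features kept their direction and call in the 55 alternatives that gave a value. The cytosol share less the mRNA share of counts was -11.6 percentage points for the membrane class, -12.4 without the 10 features with the most counts of each assay and -7.75 per codon. It was 14.4, 15.7 and 15.5 for features of 101 to 200 codons, and -4.60 and, per codon, -0.63 for those over 1600 codons. The letters a and b do not pair the samples by the labels, and deviations of same-lettered cytosol and mRNA libraries correlated at -0.063. With the replicate block 6083 features were called in WT, 4904 in UFM1-KO, 6229 in UFSP2-KO and 4676 for cytosol against membrane. The 1 feature per gene setting was not run.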
